A study of Mus musculus with 35 samples.

Results

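In hematopoietic stem/progenitor cells (HSPCs) of mouse bone marrow, 73 of the 11982 genes with a value in the RNA-seq table belonged to the families of G protein-coupled receptors studied here. They were chosen by name alone: genes named Gpr with a number, the receptors for sphingosine 1-phosphate, lysophosphatidic acid, nucleotides, adenosine, prostaglandins, leukotrienes, histamine and other amines, angiotensin, thrombin and complement C3a, and the olfactory receptors. Chemokine receptors were not covered by these names. The names also took in 9 genes whose products are not members of the classical receptor families, such as Agtrap, which encodes a protein that binds the angiotensin receptor, and these are kept apart below. WT and JMJD1B-/- HSPCs were compared with 2 libraries of polyA RNA each. Both genotypes had the mixed 129P2xC57BL/6J background. JMJD1B-/- mice carried a gene-trap allele of Kdm3b, the gene of the histone demethylase JMJD1B, in all tissues. The study used adult mice of both sexes, and it describes the HSPCs of its histone mark profiling (ChIP-seq) as those of littermates matched for age. The sex and age behind each RNA library and the surface markers used to collect its cells are not given in the sources used here. Among the RNA libraries, Xist was high in WT replicate 2 alone (below).

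A G protein-coupled receptor crosses the membrane several times, binds its ligand outside the cell and activates a G protein inside it. The alpha subunit of that G protein then raises or lowers cyclic AMP, or activates phospholipase C, while receptor kinases, arrestins and RGS proteins end the signal. In bone marrow such receptors are known for guiding stem cells and leukocytes towards lipids and other attractants, for platelet activation by ADP and thrombin, and for the responses of mast cells and basophils to histamine, complement and eicosanoids. Adhesion receptors are a separate class with a long extracellular part that is cut close to the membrane. Gpr56 and Gpr97 belong to it, as does Gpr128.

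The levels below are RPKM, read numbers scaled to the length of the transcript and to the total of the library. They are set per length, so that levels of different genes may be compared. Kdm3b itself was at 31.0 and 24.3 RPKM in the WT libraries and at 4.00 and 4.63 RPKM in the JMJD1B-/- libraries. Of the 10 stem and progenitor markers, Kit was at 51.6 to 92.7 RPKM in all 4 libraries, and Cd34 fell from 42.9 and 43.5 RPKM in WT to 20.9 and 11.7 RPKM in JMJD1B-/-. The lowest values of the table imply depths of 17.5 and 24.6 M reads (M for mega) for WT and of 6.1 and 21.0 M reads for JMJD1B-/- replicates 1 and 2. On a transcript of 1 kb, 3 reads amount to 0.171 and 0.122 RPKM in the WT libraries, and to 0.491 and 0.143 RPKM in the JMJD1B-/- libraries, for counting error only. Every gene of the table reached 1 RPKM in at least 1 library, and genes below that were not analysed here.

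To show the sequence context of the adhesion receptor genes with lower RNA in JMJD1B-/- HSPCs (below), the 250 bases before their annotated starts are given from RefSeq (GRCm38.p6), 5′ to 3′ on the strand of the gene. Capitals mark the letters GATAA, the core bound by GATA factors, and GGAAG, a core bound by ETS factors, on either strand (TTATC and CTTCC on the other), and no matches overlapped. Gpr128 has 1 annotated start here (chr16:56795859-56796108, minus strand), Gpr97 has 1 (chr8:95017442-95017691, plus strand) and Gpr56 has 2 (chr8:94976859-94977108 and chr8:94984149-94984398, plus strand).
Gpr128: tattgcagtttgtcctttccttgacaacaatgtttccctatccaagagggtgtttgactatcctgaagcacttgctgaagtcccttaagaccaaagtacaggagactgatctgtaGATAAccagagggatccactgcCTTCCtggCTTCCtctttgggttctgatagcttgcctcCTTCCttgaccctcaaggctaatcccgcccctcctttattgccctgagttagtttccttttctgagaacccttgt
Gpr97: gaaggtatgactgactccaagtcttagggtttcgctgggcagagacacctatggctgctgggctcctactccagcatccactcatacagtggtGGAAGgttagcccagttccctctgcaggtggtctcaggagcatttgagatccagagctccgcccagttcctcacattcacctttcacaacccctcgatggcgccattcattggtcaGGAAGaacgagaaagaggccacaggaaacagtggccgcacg
Gpr56, first start: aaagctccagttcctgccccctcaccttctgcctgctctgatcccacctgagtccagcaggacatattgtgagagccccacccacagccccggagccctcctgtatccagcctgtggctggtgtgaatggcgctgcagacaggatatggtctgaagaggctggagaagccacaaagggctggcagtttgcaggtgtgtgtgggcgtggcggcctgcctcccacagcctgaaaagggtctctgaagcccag
Gpr56, second start: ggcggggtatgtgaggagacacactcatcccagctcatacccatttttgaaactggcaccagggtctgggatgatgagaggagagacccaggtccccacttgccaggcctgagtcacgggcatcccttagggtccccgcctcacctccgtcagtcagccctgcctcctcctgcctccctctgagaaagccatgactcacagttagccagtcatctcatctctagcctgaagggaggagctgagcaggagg
The Gpr128 window held 1 GATAA and 3 GGAAG matches, the Gpr97 window 2 GGAAG matches, and both Gpr56 windows none of either. Of all 32851 windows of this length, 22.6% held GATAA and 64.1% held GGAAG. Of 77 windows found for 59 of the 73 receptor genes, 17 held GATAA and 51 held GGAAG. The Gpr128 window had 1 CG dinucleotide, against a median of 6 over all windows, and 7.87% of all windows had fewer. The Gpr56 windows had 4 CG dinucleotides each and the Gpr97 window had 7.

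Receptor genes were expressed at low levels. Their median in WT was 2.18 RPKM, against 10.3 RPKM for all genes of the table, and 34 of the 73 reached 1 RPKM in all 4 libraries. In each genotype 7 genes had a mean above 10 RPKM. The highest were the adhesion receptors Gpr56 and Gpr97, then F2r, P2ry1, Gpr89, Lpar6, Gpr171, S1pr4, Gpr108 and Agtrap. A further 16 genes reached 1 RPKM in just 1 library, and for 11 of these it was JMJD1B-/- replicate 1, the library of lowest depth.

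Of the 73 genes, 64 had a mean of at least 0.5 RPKM and were tested with limma on log2(RPKM + 0.1). At an unadjusted p under 0.05, 10 had less RNA and 4 had more in JMJD1B-/- than in WT, which is 15.6% and 6.25% of those tested (6 and 5 genes after quantile normalization). Over all 11863 genes tested, 6.33% were lower and 3.81% higher by the same rule. In the text below "lower" and "higher" are used in this sense for single genes. After Benjamini-Hochberg adjustment over all genes by limma, none of the 64 was under 0.05 (14 were under an unadjusted 0.05), and the lowest adjusted p was 0.0714, for Gpr128. Over all genes 0.0421% passed the adjusted threshold, which is 5 genes. The genotypes did not overlap for 24 receptor genes with JMJD1B-/- on the lower side (37.5%; 22.7% of all genes) and for 9 with JMJD1B-/- on the higher side (14.1%; 20.1% of all genes). The median log2 fold change (JMJD1B-/- over WT) was -0.27, against -0.02 for all genes, and it was -0.56 for the 50 tested receptors other than olfactory receptors and the 9 genes outside the receptor families. Because a gene entered the table by reaching 1 RPKM in any library, a gene that reached it in 1 genotype only had to differ. Of the 10 lower genes, 3 reached it in WT only (Gpr128, Hrh4 and C3ar1). Of the 4 higher genes, 2 reached it in JMJD1B-/- only, and Olfr60 is 1 of these. The count of lower genes was 4 without WT replicate 1, 3 without WT replicate 2 and 21 without JMJD1B-/- replicate 1. The count of higher genes was 1 without WT replicate 1, 1 without WT replicate 2 and 8 without JMJD1B-/- replicate 2, and the median was -0.15 without WT replicate 1 and -0.15 without JMJD1B-/- replicate 2. Gpr171, Gpr65, Cysltr2 and Ptger3 were not past the unadjusted threshold after quantile normalization or in limma without a trend.

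**Figure D1:**
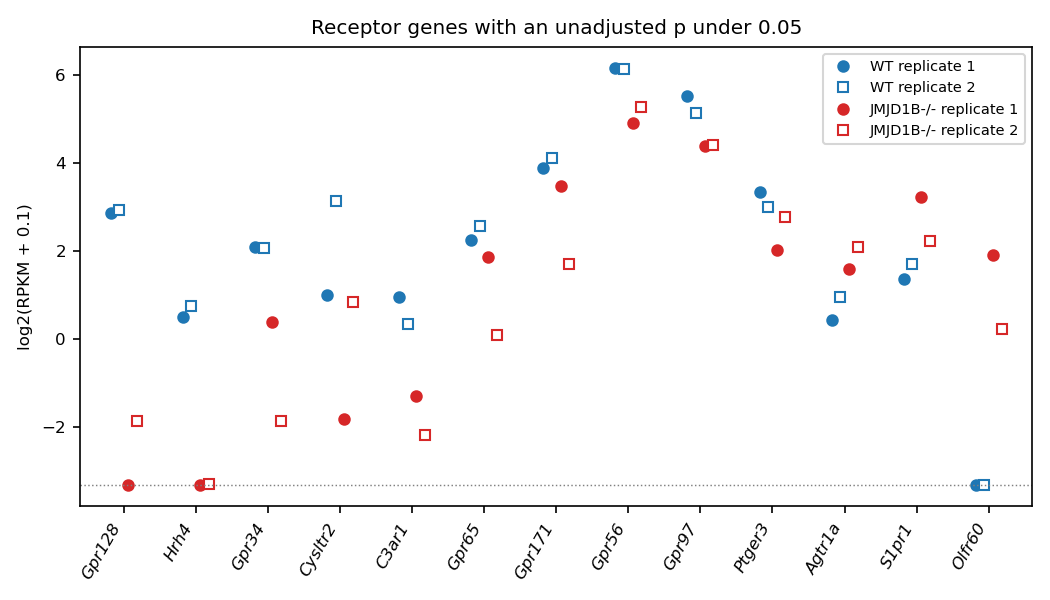
Level of 13 of the 14 receptor genes with an unadjusted p under 0.05 in each library, as log2(RPKM + 0.1); blue symbols are WT and red symbols JMJD1B-/- libraries, circles replicate 1 and squares replicate 2, and the dotted line marks 0 RPKM. For all 13 genes both red symbols lie on the same side of both blue symbols, and the widest gaps are those of Gpr128 (7.16 and 7.53 RPKM in WT) and of Hrh4 and Olfr60, which are at or near 0 in JMJD1B-/- and in WT respectively.

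Markers of cell types also moved with genotype, and they are given before the receptors of such cells. Of the basophil, mast cell and eosinophil markers, 7 of 10 tested were lower in JMJD1B-/- and none higher. Prss34, a basophil protease, was at 246 and 258 RPKM in WT and at 30.6 and 19.9 RPKM in JMJD1B-/-, and Ms4a2, a chain of the IgE receptor, was at 34.7 and 30.3 RPKM in WT and at 5.85 and 2.51 RPKM in JMJD1B-/-. The eosinophil granule gene Prg2 dominated the summed level of that list (6234 and 1645 RPKM in WT, 5004 and 1204 RPKM in JMJD1B-/-), and it was not past the threshold. Megakaryocyte and platelet markers were lower for 5 of 8 and higher for none, with summed levels of 702 and 643 RPKM in WT and of 273 and 394 RPKM in JMJD1B-/-. Granulocyte markers were lower for 6 of 10 (Mpo, Elane, Prtn3, Ctsg, Ms4a3 and Csf3r) and higher for 2 (S100a8 and S100a9). S100a9 was at 2.79 and 1.41 RPKM in WT and at 8.01 and 10.8 RPKM in JMJD1B-/-. The sums, to which Mpo gave 131 and 79.0 RPKM in WT, were 304 and 207 RPKM in WT and 98.4 and 59.1 RPKM in JMJD1B-/-. Camp was at 0 in WT replicate 2 and JMJD1B-/- replicate 1. Monocyte markers were lower for 3 of 7 (sums 137 and 145 RPKM in WT, 119 and 33.1 RPKM in JMJD1B-/-). Erythroid markers were higher for 7 of 8 (sums 629 and 896 RPKM in WT, 1780 and 2396 RPKM in JMJD1B-/-). T and NK cell markers were higher for 3 of 10 and lower for 1, and their sum was highest in JMJD1B-/- replicate 1 (93.8 RPKM, against 20.6 to 32.4 RPKM in the other libraries). Stem and progenitor markers were lower for 4 of 10 (sums 244 and 227 RPKM in WT, 141 and 182 RPKM in JMJD1B-/-) and stroma and endothelium markers for 3 of 9 (sums 48.9 and 78.6 RPKM in WT, 29.0 and 16.8 RPKM in JMJD1B-/-). Of the B cell markers 2 of 9 were in the table, Cd79b, lower, and Blk, higher. In these bulk samples fewer cells of a type and less RNA per cell cannot be told apart, and the part of these markers in the receptor results was not tested.

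Of the 5 adhesion receptors, 3 were lower in JMJD1B-/- HSPCs and none was higher. Gpr128, an orphan of this class best known from the intestine, was at 7.16 and 7.53 RPKM in the WT libraries. In the JMJD1B-/- libraries it was at 0 and 0.175 RPKM, and the genotypes were far apart. Gpr128 reached 1 RPKM in WT only, so it entered the table through WT and had to differ. Its p-value does not allow for this. On the log2 scale the difference was -5.49 ± 0.72 (SE, n = 2 per genotype; limma, unadjusted p = 9.18e-05, adjusted p = 0.0714). Its size depends on the 0.1 RPKM added, and it was -2.94 with 1 RPKM added and -7.42 with 0.01 RPKM added.

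Gpr56, which binds matrix proteins and is known as a surface marker of blood stem cells, was the most abundant receptor gene in every library. It was at 72.1 and 71.3 RPKM in WT and at 30.01 and 38.9 RPKM in JMJD1B-/-, so that each JMJD1B-/- library was well under both WT libraries. The difference amounted to a log2 fold change of -1.07 ± 0.19 (SE; limma, adjusted p = 0.166). Gpr97, a receptor of granulocytes and lymphocytes, was at 46.1 and 35.2 RPKM in WT and at 20.9 and 21.3 RPKM in JMJD1B-/-. The JMJD1B-/- libraries were close to each other and lower than either WT library, with a log2 fold change of -0.93 ± 0.20 (SE; limma, adjusted p = 0.221). Gpr56 and Gpr97 stayed at an unadjusted p under 0.05 in all other settings that kept the 4 libraries. So did Gpr128, which entered the table through WT only. The sign of all 3 was kept with any library left out. The summed level of the 5 adhesion receptors was 132 and 119 RPKM in WT and 59.8 and 65.7 RPKM in JMJD1B-/-, of which Gpr56 and Gpr97 made up most.

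Gpr56 and Gpr97 are next to each other on chromosome 8. Another member of the class, Gpr125, was at 3.94 and 3.53 RPKM in WT and at 2.86 and 3.39 RPKM in JMJD1B-/-, a log2 fold change of -0.25 (95% interval -1.05 to 0.54).

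**Figure D2:**
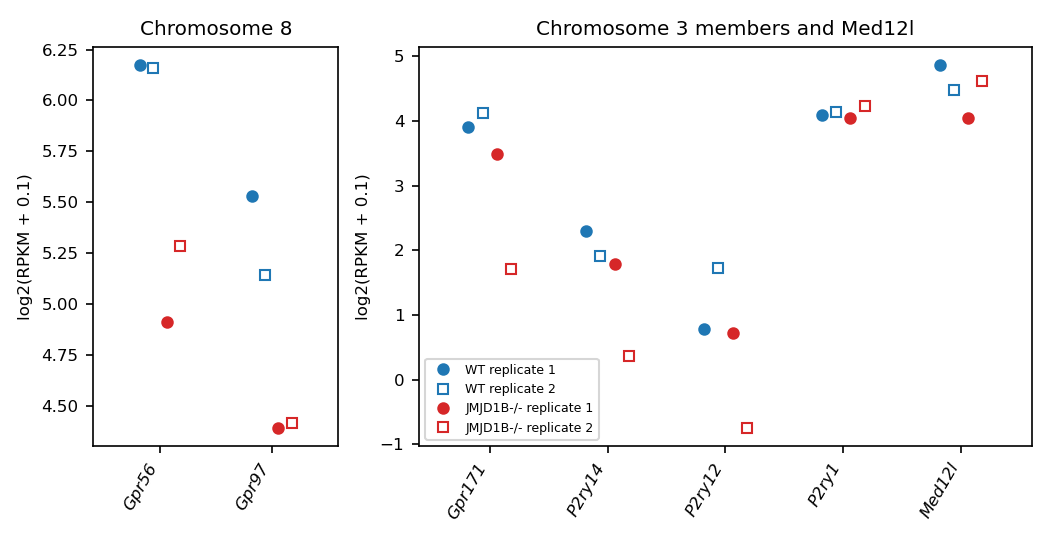
Level of genes on chromosomes 8 and 3 in each library, as log2(RPKM + 0.1); the left panel has 2 adhesion receptors that are neighbours on chromosome 8, and the right panel 4 members on chromosome 3 with Med12l, within which Gpr171, P2ry14 and P2ry12 lie. Gpr56 and Gpr97 have both JMJD1B-/- libraries (red) below WT (blue), and of the chromosome 3 genes P2ry1 has 4 nearly equal values.

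Receptors for lysophospholipids and sphingosine 1-phosphate moved in both directions, with 1 of 8 lower and 1 higher. Gpr34, a receptor for lysophosphatidylserine that is known from microglia and mast cells, was at 4.15 and 4.09 RPKM in WT and at 1.21 and 0.174 RPKM in JMJD1B-/-. The WT libraries nearly coincided and both JMJD1B-/- libraries were lower, replicate 2 far lower. The fit by limma put the log2 fold change at -2.82 ± 0.77 (SE; limma, adjusted p = 0.320), and the unadjusted p was over 0.05 without WT replicate 1 (-2.81) and without WT replicate 2 (-2.83). Leaving out JMJD1B-/- replicate 1 gave -3.94, and leaving out replicate 2 gave -1.69. Gpr34 is on the X chromosome within Cask, which was at 1.47 to 2.004 RPKM in the 4 libraries. Xist, the RNA of the inactive X chromosome, was at 332 RPKM in WT replicate 2, while the next highest library had 0.0510 RPKM. Between the WT libraries Gpr34 had nearly the same level, while P2ry10, also on the X chromosome, was at 3.80 and 7.11 RPKM. The part of sex in these values was not tested.

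S1pr1, the sphingosine 1-phosphate receptor that lets lymphocytes and progenitors leave tissues for the blood, was at 2.49 and 3.15 RPKM in WT and at 9.29 and 4.62 RPKM in JMJD1B-/-. Both JMJD1B-/- libraries were higher, replicate 1 most. The fitted difference in log2 was 1.20 ± 0.40 (SE; limma, adjusted p = 0.420), and the unadjusted p was over 0.05 without WT replicate 1 (1.03), WT replicate 2 (1.36) or JMJD1B-/- replicate 1 (0.70). Of the other sphingosine 1-phosphate receptors, S1pr4, found on leukocytes, was at 9.91 and 8.62 RPKM in WT and at 11.3 and 11.7 RPKM in JMJD1B-/-, a log2 fold change of 0.31 (95% interval -0.22 to 0.84). S1pr2 was at 0.929 to 1.03 RPKM in all 4 libraries. S1pr3, the endothelial and muscle form, was at 1.24 and 1.53 RPKM in WT and at 0.767 and 0.233 RPKM in JMJD1B-/-, and it was not past the threshold, though without JMJD1B-/- replicate 1 (log2 fold change -2.15) and in limma without a trend (-1.46) it was.

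The lysophosphatidic acid receptors and P2ry10 showed the replicates of JMJD1B-/- at odds. Lpar6 was at 12.9 and 8.41 RPKM in WT and at 24.2 and 5.60 RPKM in JMJD1B-/-, with replicate 1 above and replicate 2 below both WT libraries. P2ry10 was at 3.80 and 7.11 RPKM in WT and at 7.99 and 1.07 RPKM in JMJD1B-/-, with the same arrangement. Lpar6 lies in an intron of Rb1, which was at 26.0 and 29.2 RPKM in WT and at 38.2 and 31.8 RPKM in JMJD1B-/-, and reads of the 2 genes cannot be told apart where they overlap. Lpar5 was at 1.54 and 1.26 RPKM in WT and at 0 and 1.03 RPKM in JMJD1B-/-. None of these 3 was past the threshold. Without JMJD1B-/- replicate 1 the log2 fold change of Lpar6 was -0.89 and without replicate 2 it was 1.21, past the threshold in opposite directions. That of P2ry10 was -2.18, past the threshold, without JMJD1B-/- replicate 1 and 0.61, not past it, without replicate 2. That of Lpar5 was -3.90, past the threshold, without JMJD1B-/- replicate 2.

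**Figure D3:**
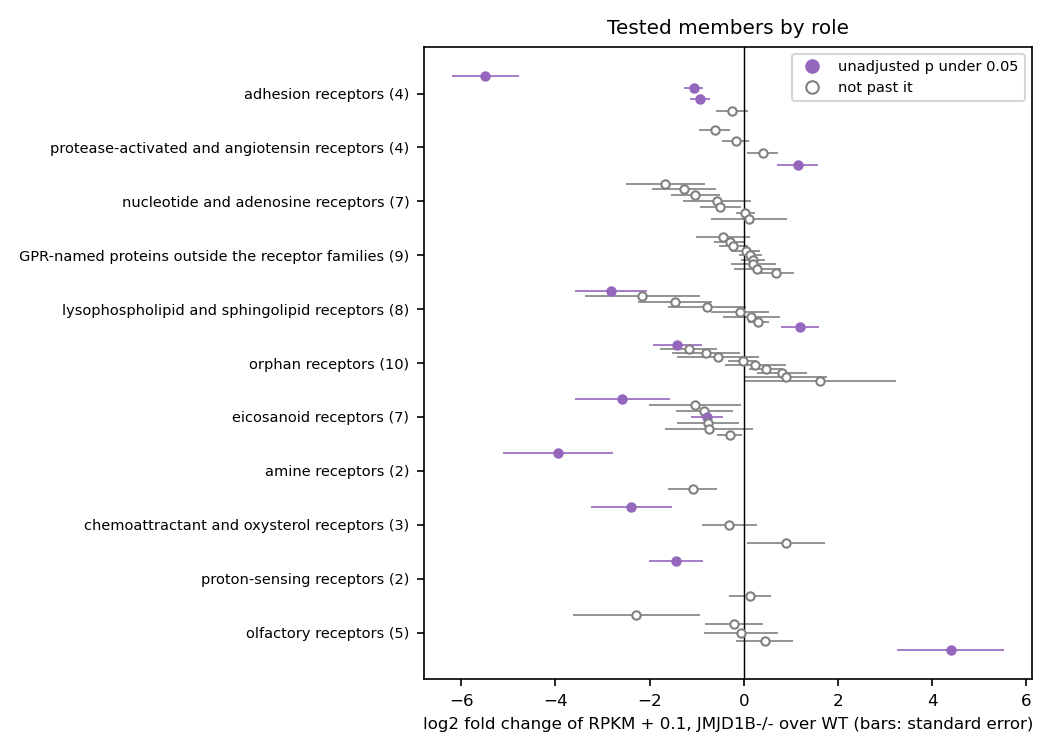
Log2 fold change of RPKM + 0.1 (JMJD1B-/- over WT) of 61 of the 64 tested genes by role, with bars for the standard error of limma; filled symbols have an unadjusted p under 0.05 and the number plotted stands beside each role. All 7 eicosanoid receptors lie left of 0, 2 of them with filled symbols, and 39 of the 64 tested genes are below 0. Gpr128 lies furthest left (-5.49) and Olfr60 furthest right (4.39).

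All 7 receptors for prostaglandins, prostacyclin and leukotrienes had a log2 fold change below 0. So did 39 of the 64 receptor genes tested and 6285 of all 11863 genes tested. Of the 7, 2 were lower, and for 3 the genotypes did not overlap. Ptger3, the EP3 receptor for prostaglandin E2, which lowers cyclic AMP and is abundant on mast cells and platelets, was at 10.1 and 7.94 RPKM in WT and at 3.97 and 6.74 RPKM in JMJD1B-/-. Both JMJD1B-/- libraries were lower, replicate 2 by little. Between the genotypes the log2 fold change was -0.78 ± 0.33 (SE; limma, adjusted p = 0.489), and the unadjusted p was over 0.05 without WT replicate 1 (-0.61), WT replicate 2 (-0.96) or JMJD1B-/- replicate 1 (-0.41). Cysltr2, a receptor for cysteinyl leukotrienes on eosinophils, mast cells and endothelium, was at 1.91 and 8.75 RPKM in WT and at 0.181 and 1.68 RPKM in JMJD1B-/-. In both genotypes replicate 2 was far above replicate 1, and the lower WT value was close to the higher JMJD1B-/- value. This gave a log2 fold change of -2.58 ± 1.01 (SE; limma, adjusted p = 0.469), and the unadjusted p was over 0.05 without WT replicate 2 (-1.51) or JMJD1B-/- replicate 1 (-1.24), and without JMJD1B-/- replicate 2 the value was -3.91. The other prostaglandin E2 receptors were not past the threshold. Ptger4, which raises cyclic AMP, was at 7.00 and 8.90 RPKM in WT and at 6.61 and 6.21 RPKM in JMJD1B-/-, and Ptger1 was at 1.23 RPKM or less in all libraries. Ptgir, the prostacyclin receptor, was at 0.525 to 1.69 RPKM. The leukotriene B4 receptors Ltb4r1 and Ltb4r2, neighbours on chromosome 14, overlapped between the genotypes, Ltb4r1 at 4.42 and 2.62 RPKM in WT and at 3.33 and 1.02 RPKM in JMJD1B-/-. Without JMJD1B-/- replicate 1 the log2 fold change of Ltb4r1 was -1.64, past the threshold.

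Of 3 amine receptors 1 was lower and none higher. Hrh4, the receptor of basophils, eosinophils and mast cells, was at 1.32 and 1.58 RPKM in WT and at 0 and 0.00121 RPKM in JMJD1B-/-, less than the RPKM that 1 read gives on 1 kb. On the log2 scale the difference was -3.94 ± 1.16 (SE; limma, adjusted p = 0.350), from -1.29 with 1 RPKM added to -7.10 with 0.01 RPKM added, where the unadjusted p was over 0.05, as it was without WT replicate 1 (-4.06) and without WT replicate 2 (-3.82). Hrh2, which raises cyclic AMP, was at 1.99 and 2.07 RPKM in WT and at 0.996 and 0.818 RPKM in JMJD1B-/-. Its WT and JMJD1B-/- pairs were each tight and did not overlap, but its log2 fold change of -1.09 ± 0.52 (SE) had an unadjusted p of 0.0745 by limma, which pools the spread over genes, and it was past the threshold without JMJD1B-/- replicate 1 (-1.21) and, with the same value, in limma without a trend and in the gene-by-gene test. Beside these values stand the basophil, mast cell and eosinophil markers given above, 7 of 10 of them lower, and their part in the histamine and leukotriene receptor results was not tested.

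Of the chemoattractant and oxysterol receptors 1 of 3 was lower. C3ar1, the receptor for complement fragment C3a on myeloid cells and mast cells, was at 1.83 and 1.17 RPKM in WT and at 0.305 and 0.122 RPKM in JMJD1B-/-. Both JMJD1B-/- values are below what 3 reads give on 1 kb in the same library. The difference amounted to a log2 fold change of -2.39 ± 0.86 (SE; limma, adjusted p = 0.433), and the unadjusted p was over 0.05 without WT replicate 1 (-2.09) and without WT replicate 2 (-2.69). Gpr77, a second receptor for C5a, was at 0.818 and 0.263 RPKM in WT and at 0.873 and 1.09 RPKM in JMJD1B-/- and not past the threshold. Gpr183, which follows oxysterols and positions lymphocytes and dendritic cells, was at 4.78 and 5.85 RPKM in WT and at 8.40 and 2.13 RPKM in JMJD1B-/-, with the replicates on either side of WT. From the 4 libraries the log2 fold change came to -0.31, -1.27 when JMJD1B-/- replicate 1 was left out and 0.66 when replicate 2 was, the last 2 past the threshold in opposite directions.

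Of the proton-sensing receptors, which respond to acid outside the cell, Gpr65 was lower. Gpr65, found on lymphocytes and myeloid cells, was at 4.69 and 5.83 RPKM in WT and at 3.54 and 0.964 RPKM in JMJD1B-/-. Replicate 2 of JMJD1B-/- was far lower than replicate 1. The fit by limma put the log2 fold change at -1.44 ± 0.58 (SE; limma, adjusted p = 0.477), and the unadjusted p was over 0.05 without WT replicate 1 (-1.59), WT replicate 2 (-1.28) or JMJD1B-/- replicate 2 (-0.55), and without JMJD1B-/- replicate 1 the value was -2.32. Gpr132 was at 3.97 and 4.63 RPKM in WT and at 7.26 and 3.04 RPKM in JMJD1B-/- and overlapped. The 4 libraries gave a log2 fold change of 0.13, -0.48 without JMJD1B-/- replicate 1 and 0.75, past the threshold, without JMJD1B-/- replicate 2.

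None of the 7 nucleotide and adenosine receptors was past the threshold in either direction, and 5 had a log2 fold change below 0. P2ry1, an ADP receptor of platelets that activates phospholipase C, had nearly the same level in all libraries. It was at 17.0 and 17.5 RPKM in WT and at 16.5 and 18.8 RPKM in JMJD1B-/-, a log2 fold change of 0.03 (95% interval -0.44 to 0.50). P2ry12, the other ADP receptor, which inhibits cyclic AMP formation in platelets, was at 1.63 and 3.21 RPKM in WT and at 1.54 and 0.496 RPKM in JMJD1B-/-. P2ry14, the receptor for UDP-glucose that is known from primitive blood progenitors, was at 4.83 and 3.65 RPKM in WT and at 3.37 and 1.18 RPKM in JMJD1B-/-. For both genes the JMJD1B-/- libraries were below WT, replicate 1 by little, and without replicate 1 the log2 fold changes of -2.004 (P2ry12) and -1.74 (P2ry14) were past the threshold. The 4 others, Adora2a, Adora2b, Adora3 and P2ry2, were at 0.180 to 2.95 RPKM.

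Of 10 tested orphan receptors, 1 was lower and none higher. Gpr171, a neighbour of P2ry14 that is known from T cells and myeloid progenitors, was at 14.8 and 17.3 RPKM in WT and at 11.1 and 3.19 RPKM in JMJD1B-/-. Between the genotypes the log2 fold change was -1.41 ± 0.52 (SE; limma, adjusted p = 0.435), and the unadjusted p was over 0.05 without WT replicate 1 (-1.52) and without WT replicate 2 (-1.30). Its size moved with the JMJD1B-/- library left out, at -2.30 without replicate 1 and -0.52 without replicate 2. P2ry12, P2ry14 and Gpr171 lie within Med12l, which was at 29.1 and 22.3 RPKM in WT and at 16.4 and 24.4 RPKM in JMJD1B-/-. Reads of Med12l and of these 3 genes cannot be told apart where they overlap, and the part of Med12l in their values was not tested. The other tested orphans, Gpr19, Gpr21, Gpr25, Gpr52, Gpr141, Gpr146, Gpr157, Gpr160 and Gpr161, were at 0.0292 RPKM (Gpr25 in WT replicate 1) to 6.86 RPKM (Gpr52 in JMJD1B-/- replicate 2). Gpr52 and Gpr21 lie within Rabgap1l and Rabgap1, and Gpr19, Gpr146, Gpr161, Gpr183, F2rl2, Ptger1, Cysltr2, Gpr108 and Gpr137 also overlap another gene of the table, so their values are uncertain. Gpr18 was not tested for its low level.

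Of 3 protease-activated receptors none was past the threshold. F2r, the thrombin receptor PAR1, was at 17.3 and 15.8 RPKM in WT and at 15.2 and 31.3 RPKM in JMJD1B-/-, with 1 JMJD1B-/- library above the other 3. All 4 libraries together gave a log2 fold change of 0.40, 0.92 without JMJD1B-/- replicate 1, past the threshold, and -0.12 without JMJD1B-/- replicate 2. F2rl3, the thrombin receptor PAR4 through which mouse platelets respond, was at 10.1 and 6.10 RPKM in WT and at 4.39 and 5.83 RPKM in JMJD1B-/-, and it was past the threshold without JMJD1B-/- replicate 2 (-0.82). F2rl2, a cofactor of PAR4 on mouse platelets, overlapped at 4.98 to 6.86 RPKM. Platelet markers stood lower by 5 of 8 beside these values. Agtr1a, the type 1a receptor for angiotensin II, was higher. It was at 1.26 and 1.85 RPKM in WT and at 2.94 and 4.15 RPKM in JMJD1B-/-, with no overlap. This gave a log2 fold change of 1.14 ± 0.44 (SE; limma, adjusted p = 0.451), and the unadjusted p was over 0.05 without WT replicate 1 (0.88), WT replicate 2 (1.40) or JMJD1B-/- replicate 2 (0.90).

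Olfactory receptor genes, which sense odours in the nose, made up 13 of the 73, of which 5 were tested and 1 was higher. Olfr60 had 0 RPKM in WT, in either library, and 3.67 and 1.07 RPKM in JMJD1B-/-. With its length of 936 bases these values are 21 reads in each JMJD1B-/- library. Against 3 reads in each WT library it was at least 15.1-fold higher, and the fitted log2 fold change was 4.39 (limma, adjusted p = 0.296). Olfr60 reached 1 RPKM in JMJD1B-/- only, so it entered the table through that genotype and had to differ. With that limit, it was past the unadjusted threshold in all other settings that kept the 4 libraries. A further 8 olfactory genes (Olfr1259, Olfr1427, Olfr418-ps1, Olfr506, Olfr611, Olfr612, Olfr714 and Olfr913) reached 1 RPKM in JMJD1B-/- replicate 1 alone, at 1.01 to 1.23 RPKM, and were not tested for their low mean. For 6 of these, whole reads could be recovered: Olfr418-ps1 had 7 reads in that library and the other 5 had 6 reads, which at its depth was enough to pass 1 RPKM. Olfr611 and Olfr612, neighbours on chromosome 7, had identical values in all 4 libraries, with 2 reads in WT replicate 1, and their reads cannot be told apart. Olfr417, Olfr248 and Olfr414, neighbours on chromosome 1, were seen in both genotypes. Olfr417 was at 3.78 and 2.01 RPKM in WT and at 1.06 and 6.48 RPKM in JMJD1B-/-. Olfr248 was at 3.61 and 1.36 RPKM in WT and at 1.99 and 4.70 RPKM in JMJD1B-/-. For both, the JMJD1B-/- replicates enclosed the WT values or overlapped them. Olfr414 was at 1.79 and 2.81 RPKM in WT and at 0 and 2.22 RPKM in JMJD1B-/-, with only replicate 1 apart. Olfr56 was at 1.99 and 1.58 RPKM in WT and at 2.57 and 0.884 RPKM in JMJD1B-/-. Without JMJD1B-/- replicate 2 the log2 fold changes of Olfr414 (-4.55) and Olfr417 (-1.31) were past the threshold, and without JMJD1B-/- replicate 1 that of Olfr417 was past it in the opposite direction (1.20).

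**Figure D4:**
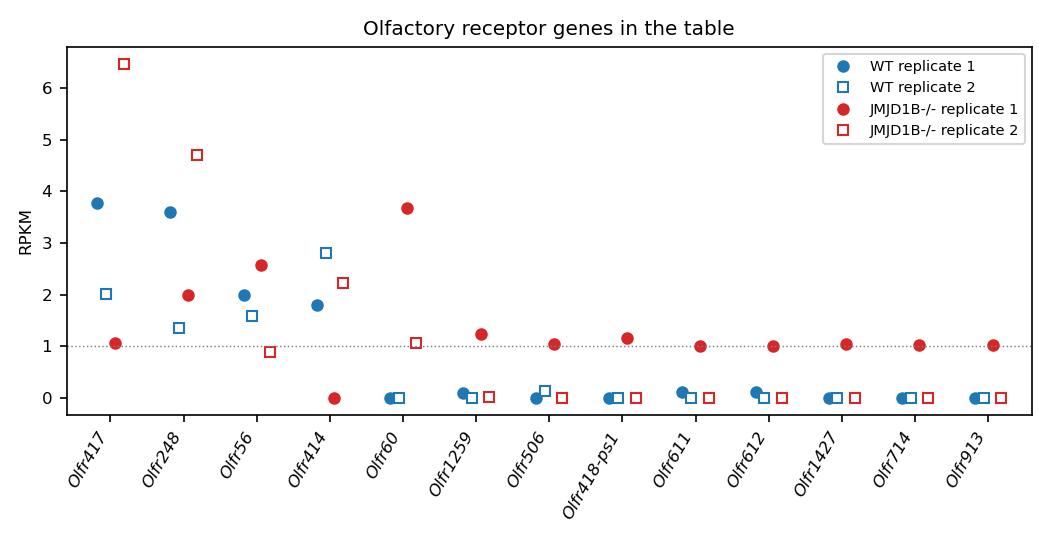
RPKM of the 13 olfactory receptor genes in each library, ordered by their mean over the libraries; blue symbols are WT and red symbols JMJD1B-/- libraries, circles replicate 1 and squares replicate 2, and the dotted line marks 1 RPKM. The 8 genes on the right reach the line in JMJD1B-/- replicate 1 alone, and Olfr60 is at 0 in both WT libraries.

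None of the 9 genes outside the receptor families was past the threshold, with a median log2 fold change of 0.14. Gpr89, a channel protein of the Golgi, was at 12.9 and 13.3 RPKM in WT and at 11.9 and 17.6 RPKM in JMJD1B-/-. Gpr108 was at 9.48 and 9.44 RPKM in WT and at 6.16 and 10.6 RPKM in JMJD1B-/-, and it was past the threshold without JMJD1B-/- replicate 2 (-0.61). Agtrap was at 11.0 and 6.46 RPKM in WT and at 5.89 and 7.90 RPKM in JMJD1B-/-. All 3 overlapped between the genotypes. The other 6, Gpr107, Gpr137, Gpr137b, Gpr137b-ps, Gpr155 and Gpr180, were at 1.08 to 8.40 RPKM.

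The proteins that receptors signal through were mostly not past the threshold. Of 86 listed partner genes 56 were tested, of which 5 were lower and 1 was higher. Over all genes tested 6.33% were lower and 3.81% higher, so these counts give no result about the partners as a group. None of the 56 passed the adjusted threshold by limma (6 at an unadjusted p under 0.05). Their median log2 fold change was -0.15, against -0.02 for all genes. None of 11 G protein alpha subunits and none of 17 enzymes of cyclic AMP was past the threshold. Of 10 beta and gamma subunits, Gng5 was higher, at 45.1 and 39.0 RPKM in WT and at 61.8 and 57.5 RPKM in JMJD1B-/-. Of 4 phospholipases C, Plcb2, the form of blood cells, was lower, at 42.6 and 26.1 RPKM in WT and at 23.5 and 17.2 RPKM in JMJD1B-/-. Among the genes that end signalling, Adrbk1, a receptor kinase, was at 79.4 and 66.1 RPKM in WT and at 54.2 and 52.2 RPKM in JMJD1B-/-, and Arrb2, an arrestin, was at 50.9 and 39.0 RPKM in WT and at 29.5 and 33.4 RPKM in JMJD1B-/-. Both were lower, with log2 fold changes of -0.44 and -0.51. Of 8 RGS proteins, which speed the shutdown of G proteins, Rgs1 and Rgs18 were lower. Rgs1, of lymphocytes and myeloid cells, was at 62.0 and 74.5 RPKM in WT and at 39.7 and 32.9 RPKM in JMJD1B-/-. Rgs18, of platelets and their precursors, was at 76.0 and 86.5 RPKM in WT and at 47.4 and 41.9 RPKM in JMJD1B-/-. Their log2 fold changes were -0.91 ± 0.19 and -0.86 ± 0.18 (SE; limma, adjusted p = 0.211 and 0.204).

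**Figure D5:**
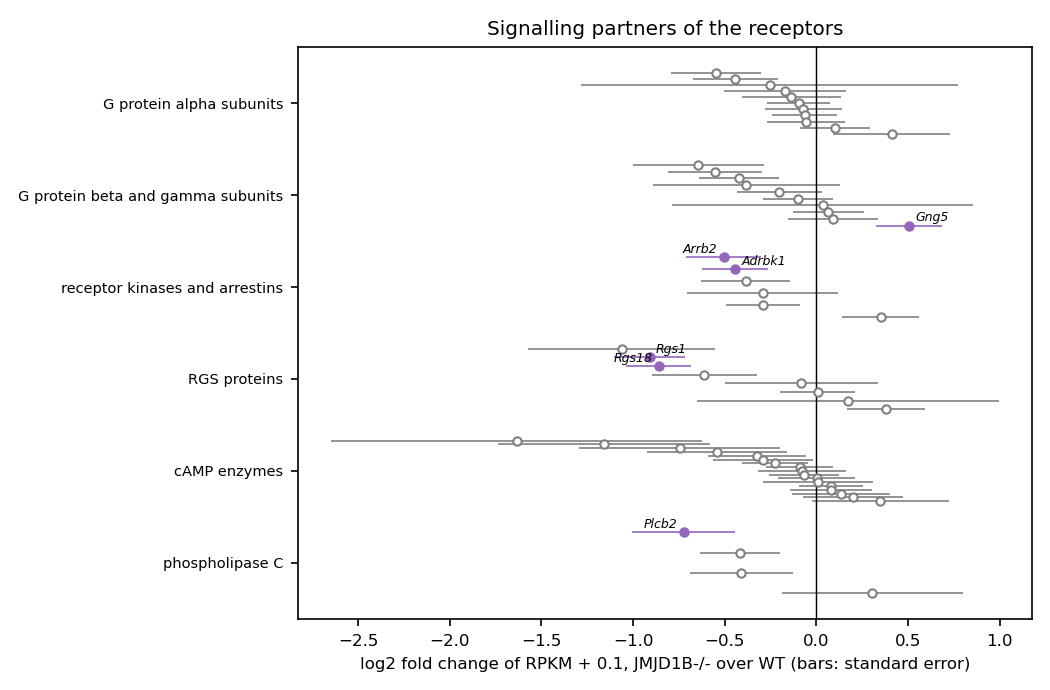
Log2 fold change of RPKM + 0.1 (JMJD1B-/- over WT) of the 56 tested signalling partners by group, with bars for the standard error of limma; filled and named symbols have an unadjusted p under 0.05. Named genes lie left of 0 except Gng5 (0.51), and no G protein alpha subunit or cyclic AMP enzyme is filled.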

How the data were processed

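HSPCs of WT and JMJD1B-/- mice were profiled by RNA-seq with 2 libraries per genotype, labelled as biological replicates. The authors deposited 1 table of RPKM per gene and library with 1 added to each value, which was subtracted here. The submitters' processing notes name TopHat2, Novoalign and build mm9, while the counting program, annotation and versions are not given in the sources used here. The table has 12024 entries for 11982 names, and 42 names with more than 1 entry were averaged. The TruSeq kit does not mark strand, so reads of overlapping genes cannot be told apart. All 73 receptor genes matched RefSeq (GRCm38.p6), which gave chromosomes, neighbours, lengths and promoter windows.

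The genotypes were compared on log2(RPKM + 0.1) for genes whose mean RPKM was 0.5 or more, using limma 3.58.1 (R 4.3.3; eBayes with a trend, two-sided) and Benjamini-Hochberg adjustment over all 11863 genes. The 0.1 RPKM added makes fold changes of low genes too small. Exact permutation of 2 against 2 libraries cannot give a p below 0.333. Depth was inferred from low values: 39 of 186 genes gave the same depth within 0.2%.

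The genes, roles and lists were chosen with earlier results of these data known. Named were Gpr128, each receptor gene with an unadjusted p under 0.05 and no overlap, the 10 of highest mean RPKM, the highest of each role, the olfactory genes and, by the same p and overlap, the signalling partners (at most 3 a group). Gpr125, Hrh2 and other receptor genes outside this rule were named after their values were seen. Some genes that the counts include are not reported here by name. As no source used here ties each library to its animals, p-values measure the spread between these libraries. For the JMJD1B-/- libraries that spread may be technical. The WT libraries differed in Xist (0.0510 and 332 RPKM), so they were not made from the same cells. By Xist, sex was not balanced between the genotypes, and it was not in the fit.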

Additional observations from a re-analysis of the deposited data

How the results depend on the processing

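The signs of Gpr128, Gpr56, Gpr97 and Olfr60 were kept in all 13 alternatives (added value, filter on low values, scaling, test, replicate term, left-out library). Their calls were kept in those with all 4 libraries. Gpr128 and Olfr60 entered the table through 1 genotype only, so for these 2 genes the sign was fixed by that entry. With 10 lower genes in the reported fit, quantile normalization gave 6, a gene-by-gene test 6, the replicate block 11, and the left-out libraries 3 to 21. With 4 higher, the gene-by-gene test gave 1, the replicate block 2, and the left-out libraries 1 to 8. With 0 past the adjusted threshold, an added value of 1 RPKM gave 1 (Gpr128, adjusted p = 0.0298), the replicate block 6, and the left-out libraries 0 to 12. The median of -0.27 was -0.13 after quantile normalization, and -0.37 to -0.15 with left-out libraries, of which without JMJD1B-/- replicate 1 the median of all genes was 0.09 and without replicate 2 it was -0.10. Lower genes were 71.4% of the receptor genes called (62.4% over all genes), 54.5% after quantile normalization (51.8%), 61.5% in limma without a trend (68.9%), 85.7% in the gene-by-gene test (59.5%) and 84.6% with the replicate block (61.5%). Besides left-out libraries, calls of single named genes were lost with median-ratio scaling (Gpr171, Gpr65), quantile normalization or limma without a trend (also Cysltr2, Ptger3), the gene-by-gene test (also Agtr1a, Gpr34, S1pr1), the replicate block (Agtr1a) and 0.01 RPKM added (Hrh4). Calls were gained in limma without a trend (Hrh2, S1pr3), the gene-by-gene test (Hrh2) and the replicate block (Olfr414). Over all genes the left-out libraries gave 177 to 1819 lower genes (751 in the reported fit) and up to 1258 higher (452). The sign of Olfr417 (-0.05) turned to 0.048 with 1 RPKM added and to 0.047 after quantile normalization, that of Olfr56 (-0.21) to 0.10 and that of S1pr2 (-0.08) to 0.25 after quantile normalization. The sign also turned with a left-out library for Agtrap (-0.68 to 0.076), F2r (-0.12 to 0.92), Gpr108 (-0.61 to 0.16), Gpr132 (-0.48 to 0.75), Gpr183 (-1.27 to 0.66), Gpr89 (-0.14 to 0.42), Lpar6 (-0.89 to 1.21), Olfr248 (-0.23 to 1.11), Olfr417 (-1.31 to 1.20), Olfr56 (-0.93 to 0.51), P2ry1 (-0.063 to 0.12) and P2ry10 (-2.18 to 0.61). The cause was not tested. Across genes, the difference between replicates 1 and 2 in WT had a correlation of -0.05 with that in JMJD1B-/-. With 1 such difference per genotype, this value cannot decide whether libraries of the same number are paired. Depth limits the genes under about 0.5 RPKM in JMJD1B-/- replicate 1, where 3 reads on 1 kb are 0.491 RPKM.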
